A study of Mus musculus with 9 samples.

Results

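The 10 transcription factors described here are those that build and hold the contractile state of vascular smooth muscle, or that are tied to its loss. They are Myocd, Srf, Mef2c, Gata6, Prdm6, Tead1, Meis1, Foxc1, Tcf21 and Klf5, taken by symbol from the table of 55453 genes. All 10 had enough counts to be tested, among 19412 tested genes. Messenger RNA came from whole aortae of 9 C57BL/6J mice. In 3 mice the genotype was Itga8-Cre: the series text names the allele Itga8-CreERT2, in which the integrin gene Itga8 drives a Cre recombinase that tamoxifen switches on. In another 3 it was Myh11-Cre, where the same kind of Cre is under the smooth muscle myosin gene Myh11, and 3 mice were Wild Type. The labels name no floxed allele, tamoxifen treatment, age or sex. The study set the activity of the new Cre mouse beside that of the established one.

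Smooth muscle cells do not leave their specialised state for good: they can lower their contractile genes and regain them. The central switch is a complex of serum response factor (Srf), which binds a DNA element called the CArG box, and its coactivator myocardin (Myocd), which is restricted to smooth and cardiac muscle. Other factors act beside this complex. Mef2c is a MADS-box relative of Srf, Gata6 a zinc finger factor of quiescent vascular muscle, Prdm6 a PR domain protein enriched in smooth muscle, and Tead1 the DNA-binding partner of the Hippo pathway coactivators. Meis1 is a homeodomain cofactor of Hox proteins and Foxc1 a forkhead factor of the developing aortic arch. Tcf21 belongs to fibroblasts of the vessel wall and heart and to smooth muscle cells that change state, and Klf5 is a zinc finger factor of epithelia and of activated smooth muscle.

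The CArG box is shown here because it is the DNA element through which Srf and Myocd act, and because Srf carries it in front of its own gene. RefSeq promoter sequences on GRCm38.p6, from 250 bases before to 50 bases after a start site, were found for 5 of the 10 factors (Srf, Mef2c, Tcf21, Foxc1 and Meis1), as 7 promoters. No entry was matched for Myocd, Gata6, Prdm6, Tead1 and Klf5. The strict form of the box was searched: CC, then 6 letters that are each A or T, then GG, which reads the same on both strands. Of the 7 promoters, 1 held this strict form, that of Srf, against 535 of all 32851 promoters (1.63%). Srf had 2 strict boxes, which begin at -82 and -62 from the start site. Among 16 matched genes of a list of contractile targets of Myocd and Srf, 1 of 18 promoters held the strict form (5.56%), that of the myosin light chain gene Myl9, at -161. Boxes that Srf binds often differ from the strict form, so its absence does not mean that a promoter lacks the element. With at most 1 letter off, a search added after the strict counts were seen, 2 of 7 promoters of the factors (28.6%, Srf and Meis1), 6 of 18 target promoters (33.3%) and 21.1% of all promoters held a match. Acta2, the smooth muscle actin gene, had 0 strict boxes and 2 matches of this looser kind. The element of Tead factors, CATTCC on either strand, was in 1 of the 7 promoters of the factors (14.3%), in 6 of the 18 target promoters (33.3%) and in 14.7% of all promoters. The 250 bases before the start of Srf (chr17:46556163-46556412, minus strand) and of Myl9 (chr2:156775214-156775463, plus strand) read as follows from 5′ to 3′, with strict CArG boxes in capitals.
Srf: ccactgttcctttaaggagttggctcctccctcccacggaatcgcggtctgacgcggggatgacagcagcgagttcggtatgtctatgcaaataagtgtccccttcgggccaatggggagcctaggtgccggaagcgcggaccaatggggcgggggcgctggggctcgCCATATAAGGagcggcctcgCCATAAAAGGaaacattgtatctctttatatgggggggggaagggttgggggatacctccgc
Myl9: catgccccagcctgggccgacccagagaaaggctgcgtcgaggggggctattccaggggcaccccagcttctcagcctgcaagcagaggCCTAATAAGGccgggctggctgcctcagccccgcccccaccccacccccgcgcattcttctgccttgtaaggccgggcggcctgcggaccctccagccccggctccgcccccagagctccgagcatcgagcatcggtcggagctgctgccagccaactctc

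Total counts ran from 31419238 to 42497543 per library, and levels are given in CPM, a count scaled to library size with TMM factors. Values of a genotype are listed in the order of mouse 1, 2 and 3. Whole aortae held transcripts of other tissues at levels that differed widely between mice of 1 genotype. Marker lists were summed per library. All 13 smooth muscle markers were tested and none was at 0 in any library. Their sum was 1780 to 2550 CPM in the Itga8-Cre mice, 1490 to 4230 in the Myh11-Cre mice and 2620 to 4250 in the Wild Type mice. The sum of 12 skeletal muscle markers was 170 to 7660 CPM in the Itga8-Cre mice, 94.6 to 17500 in the Myh11-Cre mice and 934 to 1990 in the Wild Type mice, and none of the 12 was at 0. Itga8-Cre 1 and Myh11-Cre 1 were the 2 libraries lowest in both muscle lists, and Itga8-Cre 3, Myh11-Cre 2 and Myh11-Cre 3 were the 3 highest in skeletal muscle markers. In such bulk samples, fewer cells of a type and less RNA per cell cannot be told apart. Itga8, the gene used for the new Cre, was at 54.1, 76.5 and 62.9 CPM in the Itga8-Cre mice, 72.4, 298 and 300 in the Myh11-Cre mice and 475, 147 and 196 in the Wild Type mice.

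The levels of different genes were compared per kilobase of exon, using the union of exons in GENCODE M21. Srf was the most abundant of the 10 factors, at 10.5 ± 2.21 CPM per kilobase (SD over 9 libraries). Mef2c followed at 6.62 ± 2.85, Tead1 at 6.15 ± 1.18 and Myocd at 4.11 ± 1.39 CPM per kilobase. Gata6 (2.49 ± 0.721), Foxc1 (2.44 ± 0.623), Meis1 (1.94 ± 0.238) and Prdm6 (1.62 ± 0.414) formed a middle group on this scale. Klf5 (0.942 ± 0.898) and Tcf21 (0.416 ± 0.37 CPM per kilobase) came last, and Tcf21 rested on only 7 to 111 counts per library. For all 9 neighbouring pairs in this order the ranges over libraries overlapped, so no neighbours differed beyond their spread over all libraries. Srf nevertheless stood above Mef2c, and Myocd above Gata6, within each of the 9 libraries. The order depends on the length used: divided by the longest transcript, Mef2c came to 16.6 CPM per kilobase and stood above Srf, at 11.6.

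**Figure D1:**
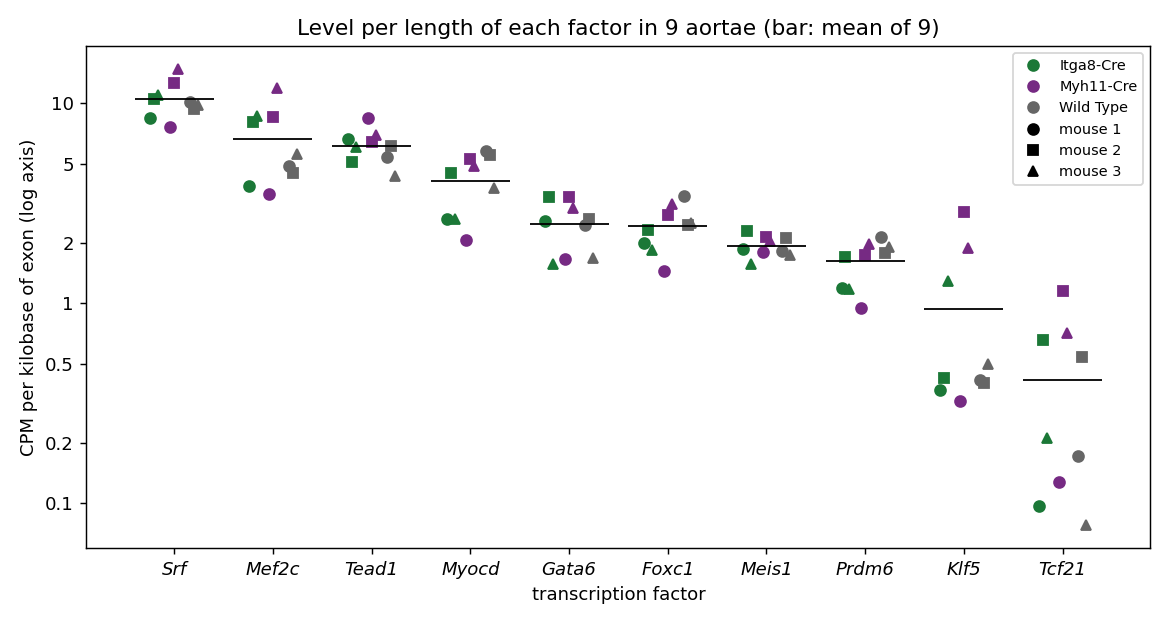
CPM per kilobase of exon (log axis) for each factor, 1 point per aorta, coloured by genotype and shaped by mouse number, with the mean of 9 as a bar. Srf lies highest at a mean of 10.5 and Tcf21 lowest at 0.416, and Klf5 and Tcf21 spread most.

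The factors also differed in how much they varied. Meis1 was the steadiest, with a coefficient of variation of 12.3% over the 9 libraries and a highest library 1.48 times the lowest. Tead1 (19.2%) and Srf (21%) came next. Prdm6 and Foxc1 were both at 25.5%, Gata6 at 28.9%, Myocd at 33.7% and Mef2c at 43%. Tcf21 (88.9%) and Klf5 (95.3%) varied most, with highest libraries 14.8 and 8.77 times the lowest. The lowest of the 9 libraries was Myh11-Cre 1 for 6 of the 10 factors, Myocd, Srf, Mef2c, Prdm6, Foxc1 and Klf5, and that library was the highest for Tead1.

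No factor passed the test in any of the 3 genotype comparisons. In Itga8-Cre against Wild Type, edgeR's quasi-likelihood test with Benjamini-Hochberg adjustment called 0 of 10 factors and 0% of all genes. In Myh11-Cre against Wild Type and in Itga8-Cre against Myh11-Cre it likewise called 0 of 10 and 0% of all genes. At an unadjusted p under 0.05 there were 0, 2 and 0 of 10 factors in these comparisons, where 6.78%, 16.4% and 9.48% of all genes had such a p. DESeq2 called 0 factors in each comparison, beside 0.166%, 4.44% and 0.109% of the genes it tested, and limma voom called 0 factors and 0% of all genes. The median log2 fold change of the 10 factors was 0.09, 0.25 and -0.24, beside 0.04, 0.01 and 0.01 over all genes. Both comparisons against Wild Type share the same 3 control libraries, and nothing in the labels says whether the mice of a group were littermates.

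**Figure D2:**
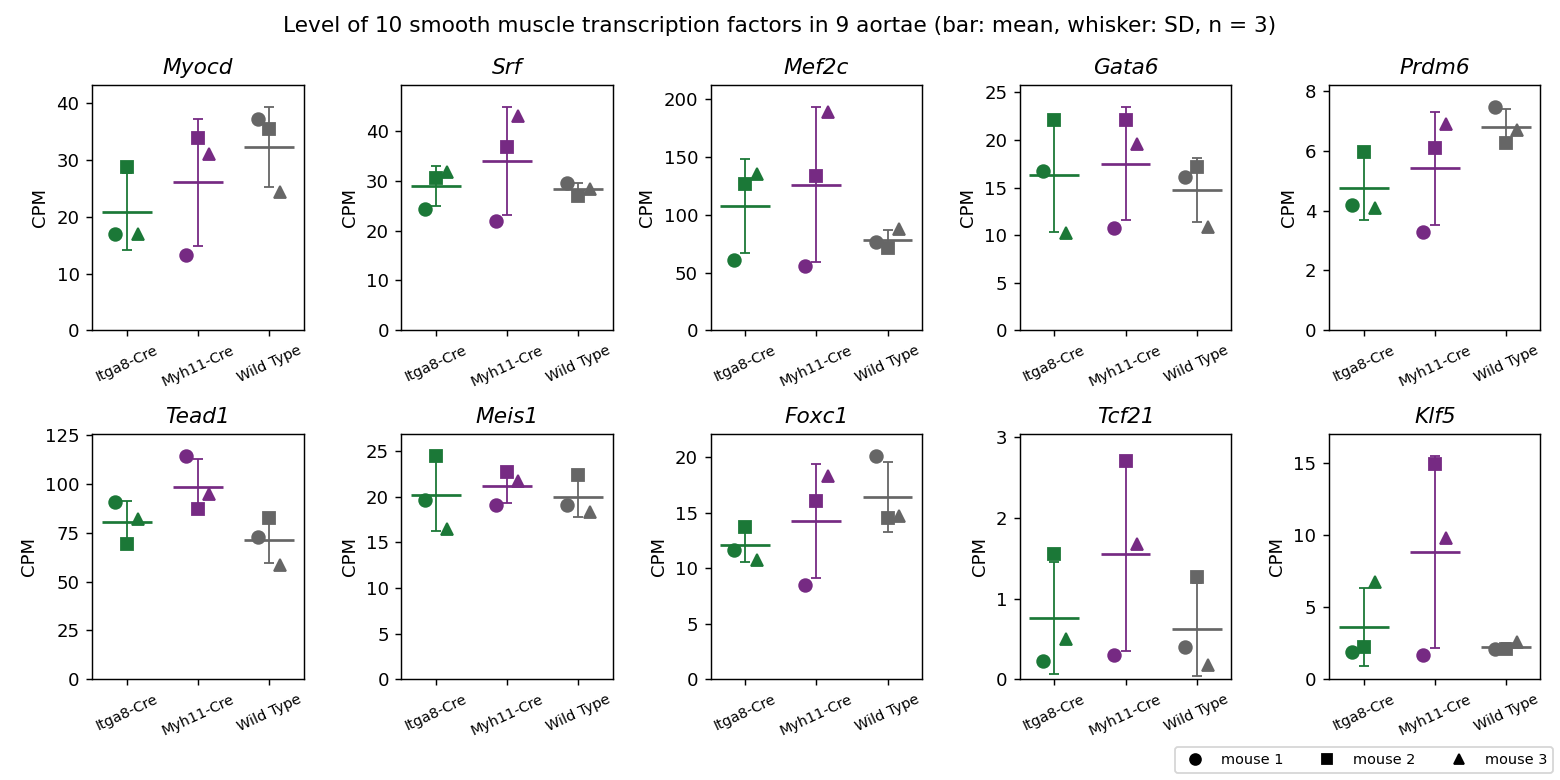
CPM of each factor (linear axis from 0) by genotype, 1 point per aorta shaped by mouse number, with the mean as a bar and the SD as a whisker (n = 3). Mouse 1 of Myh11-Cre is the lowest of all 9 aortae for Myocd, Srf, Mef2c, Prdm6, Foxc1 and Klf5 and the highest for Tead1.

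The core pair of the contractile programme was Srf with its coactivator Myocd. Myocd (chromosome 11, 65176561 to 65269989, minus strand, GRCm38) was at 16.9, 28.8 and 17 CPM in the Itga8-Cre mice, 13.3, 33.8 and 31.1 in the Myh11-Cre mice and 37.2, 35.4 and 24.3 in the Wild Type mice. The lowest values were those of Itga8-Cre 1 and 3 and Myh11-Cre 1, and Itga8-Cre 2 lay above Wild Type 3, so the groups overlapped. The log2 fold change in Itga8-Cre against Wild Type was -0.63 (SE 0.36), with an adjusted p of 0.703 in edgeR. In Myh11-Cre against Wild Type it was -0.31 (SE 0.36), with an adjusted p of 0.68 in edgeR, and without Myh11-Cre 1 it was 0.008.

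Srf (chromosome 17, 46548329 to 46556175, minus strand) was at 24.3, 30.5 and 31.8 CPM in the Itga8-Cre mice, 22, 36.7 and 43 in the Myh11-Cre mice and 29.5, 27 and 28.4 in the Wild Type mice. Wild Type mice were close to each other, with a coefficient of variation of 4.32%, while Myh11-Cre mice held both the lowest and the highest value (31.9%). Its log2 fold change was 0.03 (SE 0.22) in Itga8-Cre and 0.26 (SE 0.22) in Myh11-Cre against Wild Type, with adjusted p values of 0.977 and 0.566 in edgeR. Mef2c (chromosome 13, 83504034 to 83667080, plus strand), the other MADS-box factor, was at 60.8, 127 and 135 CPM in the Itga8-Cre mice, 55.7, 134 and 189 in the Myh11-Cre mice and 76.2, 70.9 and 87.5 in the Wild Type mice. In both Cre lines mouse 1 lay below every Wild Type library and mice 2 and 3 lay above every Wild Type library. The log2 fold changes were 0.46 (SE 0.43) and 0.69 (SE 0.43), with adjusted p values of 0.782 and 0.434 in edgeR.

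Mef2c was the only factor called in any of the settings tried, and this setting was added once the data had been seen. It leaves out the 2 libraries lowest in smooth muscle markers, mouse 1 of each Cre line. There Mef2c had a log2 fold change of 1.04 in Myh11-Cre against Wild Type (SE 0.16, adjusted p = 0.0427 in edgeR), 1 of 265 genes called. In that setting Srf was at 0.49 and Klf5 at 2.44, with adjusted p values of 0.0573 and 0.0546 in edgeR. The 2 Myh11-Cre libraries that stay are the 2 highest of all 9 in skeletal muscle markers. Without the 3 libraries highest in skeletal muscle markers, the Myh11-Cre arm is Myh11-Cre 1 alone, the lowest library for Mef2c, with its spread borrowed from the rest, and the value was -0.49 (SE 0.39, adjusted p = 0.655 in edgeR). The part of skeletal muscle in the level of Mef2c was not tested.

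Gata6 and Prdm6 are 2 further factors of differentiated smooth muscle. Gata6 (chromosome 18, 11052064 to 11085635, plus strand) was at 16.7, 22.1 and 10.2 CPM in the Itga8-Cre mice, 10.8, 22.1 and 19.6 in the Myh11-Cre mice and 16.1, 17.2 and 10.9 in the Wild Type mice. The 3 groups overlapped fully, at a log2 fold change of 0.15 (SE 0.34) for Itga8-Cre and 0.25 (SE 0.34) for Myh11-Cre, each against Wild Type. A transcript on the opposite strand, 1010001N08Rik, overlaps Gata6 and was at a mean of 2.59 CPM, so reads could be shared if strand was not used in counting. Other tested gene models overlap Tead1 (2310014F06Rik, opposite strand, 0.907 CPM) and Meis1. Those over Meis1 lie on the same strand (Gm37818, 2900018N21Rik and 2610001A08Rik, at 0.856, 0.612 and 0.395 CPM). Prdm6 (chromosome 18, 53463583 to 53575907, plus strand) was at 4.17, 5.95 and 4.1 CPM in the Itga8-Cre mice, 3.28, 6.08 and 6.88 in the Myh11-Cre mice and 7.45, 6.24 and 6.69 in the Wild Type mice. All 3 Itga8-Cre values lay below all 3 Wild Type values. The log2 fold change was -0.52 (SE 0.28) in Itga8-Cre, with an adjusted p of 0.699 in edgeR, and -0.33 (SE 0.28) in Myh11-Cre.

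Foxc1 (chromosome 13, 31806633 to 31812476, plus strand), the forkhead factor, was the other gene whose Itga8-Cre and Wild Type libraries did not overlap. It was at 11.7, 13.7 and 10.8 CPM in the Itga8-Cre mice, 8.51, 16.1 and 18.3 in the Myh11-Cre mice and 20.1, 14.5 and 14.7 in the Wild Type mice. The log2 fold change in Itga8-Cre was -0.44 (SE 0.27), with an adjusted p of 0.707 in edgeR. These 2 of 10 factors stand beside 11.1% of all genes whose groups did not overlap in this comparison, and 5.37% that did so with Itga8-Cre lower (5.76% with it higher). Smooth muscle markers had lower values as well: 5 of 13 had all Itga8-Cre values below all Wild Type values, 0 of 13 had them above, and their median log2 fold change was -0.52. Their part in the values of Prdm6 and Foxc1 was not tested.

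Tead1 and Klf5 were the 2 factors with an unadjusted p under 0.05 in Myh11-Cre against Wild Type, both with higher values, as for 6.93% of all genes. Tead1 (chromosome 7, 112679318 to 112906807, plus strand) was at 114, 87 and 94.5 CPM in the Myh11-Cre mice, 90.5, 69.4 and 81.9 in the Itga8-Cre mice and 72.9, 82.7 and 58.7 in the Wild Type mice. All 3 Myh11-Cre libraries lay above all 3 Wild Type libraries, as did 11.3% of all genes in this comparison (26% did not overlap in either direction). The log2 fold change was 0.46 (SE 0.16), a 1.38-fold higher level, with an adjusted p of 0.249 in edgeR. It was between 0.34 and 0.59 without any 1 library and 0.34 without the 2 libraries lowest in smooth muscle markers. In Itga8-Cre it was 0.17 (SE 0.16), with an adjusted p of 0.783 in edgeR. Brown fat markers summed to 3800 to 7630 CPM in the Myh11-Cre mice, highest in Myh11-Cre 1, to 2580 to 8140 in the Itga8-Cre mice and to 3290 to 4250 in the Wild Type mice. Of these 10 markers, none at 0, 3 had all Myh11-Cre values above all Wild Type values. Over the 9 libraries Tead1 had r = 0.655 with this list (exact permutation p = 0.0542, adjusted p = 0.232, rho = 0.65 with exact p = 0.0666 and adjusted p = 0.312), and the part of brown fat was not tested.

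Klf5 (chromosome 14, 99298691 to 99315036, plus strand) was at 1.7, 14.9 and 9.82 CPM in the Myh11-Cre mice, 1.92, 2.21 and 6.78 in the Itga8-Cre mice and 2.14, 2.09 and 2.58 in the Wild Type mice. Wild Type aortae were nearly alike (coefficient of variation 11.8%), and 3 libraries of the Cre lines stood apart above them, Myh11-Cre 2 and 3 and Itga8-Cre 3. The log2 fold change in Myh11-Cre was 1.95 (SE 0.74), with an adjusted p of 0.265 in edgeR. In Itga8-Cre it was 0.68 (SE 0.73, adjusted p = 0.811 in edgeR), and without Itga8-Cre 3 it was -0.15. Those 3 libraries are the 3 highest in skeletal muscle markers, and without them the value was -0.42 (SE 0.33, adjusted p = 0.65 in edgeR) for Myh11-Cre 1 alone, the lowest library for Klf5. Mesothelial and epithelial markers summed to 173 to 383 CPM in Myh11-Cre, 124 to 219 CPM in Itga8-Cre and 61.9 to 114 CPM in Wild Type, with none of the 11 at 0. The part of either tissue in the level of Klf5 was not tested.

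Tcf21 and Meis1 differed from each other most in steadiness. Tcf21 (chromosome 10, 22817281 to 22820174, minus strand) was at 0.229, 1.55 and 0.501 CPM in the Itga8-Cre mice, 0.301, 2.7 and 1.67 in the Myh11-Cre mice and 0.406, 1.27 and 0.182 in the Wild Type mice. Mouse 2 was the highest of its group in all 3 genotypes. The log2 fold change in Myh11-Cre was 1.33 (SE 0.96), with an adjusted p of 0.499 in edgeR. It was 0.68 without Myh11-Cre 2 and 2.42 without Wild Type 2. Meis1 (chromosome 11, 18879817 to 19018985, minus strand) was at 19.6, 24.4 and 16.5 CPM in the Itga8-Cre mice, 19.1, 22.7 and 21.7 in the Myh11-Cre mice and 19.1, 22.4 and 18.3 in the Wild Type mice. Its log2 fold changes against Wild Type were 0.02 (SE 0.15) and 0.09 (SE 0.15), the former changing sign with the scaling used (-0.014 with DESeq2-style size factors).

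**Figure D3:**
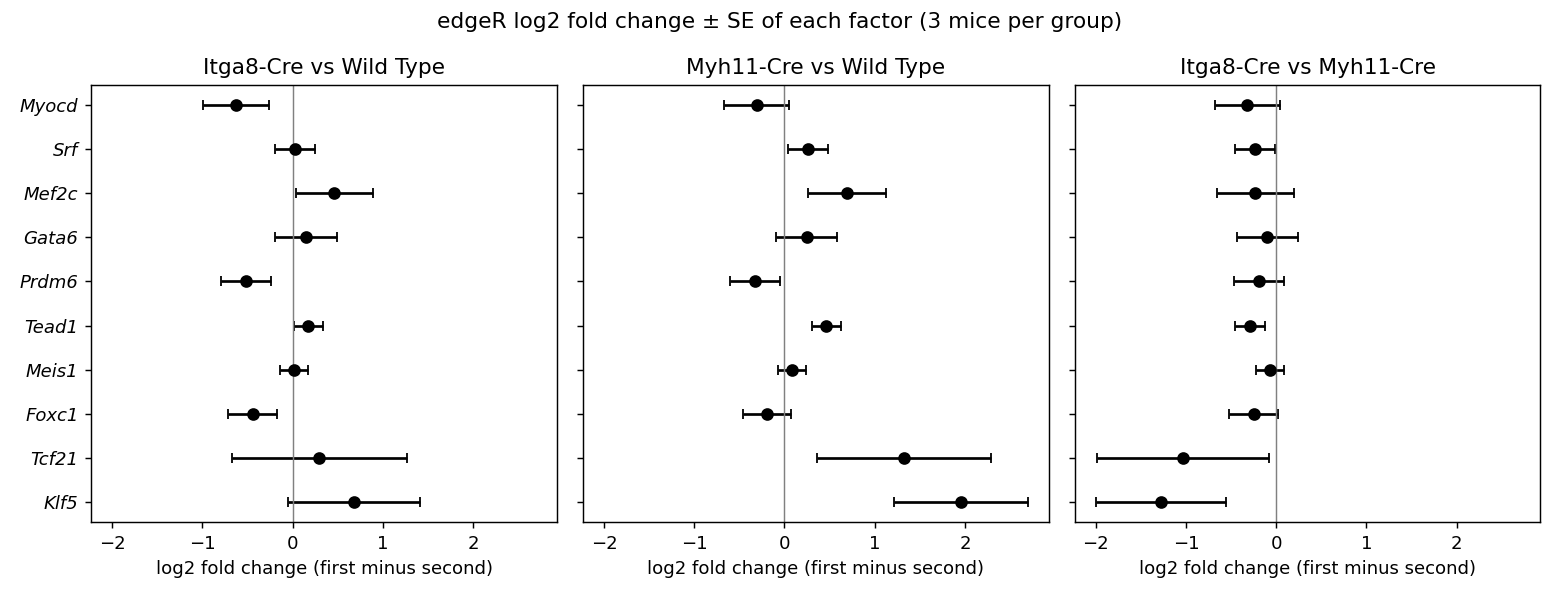
Log2 fold change (x axis) of each factor from edgeR in the 3 comparisons, as the first named group minus the second, with the SE as bars. Tead1 and Klf5 lie farthest from 0 relative to their SE, at 0.46 and 1.95 in Myh11-Cre against Wild Type, and no factor passed after adjustment.

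All 10 factors had lower values in Itga8-Cre than in Myh11-Cre, while 51.3% of all genes had higher values in Itga8-Cre. No factor passed between the 2 Cre lines. The log2 fold changes ran from -1.28 (SE 0.72) for Klf5, with an adjusted p of 0.587 in edgeR, to -0.07 (SE 0.15) for Meis1, with an adjusted p of 0.869. The Itga8-Cre and Myh11-Cre libraries overlapped for 10 of 10 factors, and 12.7% of all genes did not overlap, 9.65% with Itga8-Cre higher and 3.07% with it lower. All 13 smooth muscle markers and all 12 skeletal muscle markers had lower values in Itga8-Cre too, with medians of -0.38 and -1.53.

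Because the level of smooth muscle markers differed between aortae, each factor was also set against the mean log2 CPM of the 13 smooth muscle markers in the same library. For Myocd this log2 ratio was -2.55, -2.57 and -2.75 in the Myh11-Cre mice against -2.28, -1.94 and -2.33 in the Wild Type mice. On this scale Myh11-Cre 1, among the lowest libraries in CPM, no longer stood apart from mice 2 and 3, and all 3 lay below Wild Type. The difference was -0.44, with p = 0.1 in an exact permutation test, two-sided, where groups of 3 can give no lower p (adjusted p = 0.625 over 30 tests). Of all genes, 5.72% did not overlap on this ratio in this comparison and 1.22% did so with Myh11-Cre lower. The separation depends on the base: against Acta2 alone, the difference for Myocd was -0.08 (exact permutation p = 1.0) and the groups overlapped. For Klf5 the ratio was higher in all 3 Myh11-Cre libraries, by 1.42 (exact permutation p = 0.1, adjusted p = 0.625), as for 4.5% of all genes.

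Srf was the factor whose ratio to smooth muscle markers did not overlap between Itga8-Cre and Wild Type. It was -1.83, -2.07 and -1.96 in Itga8-Cre against -2.62, -2.33 and -2.1 in Wild Type, a difference of 0.40 (exact permutation p = 0.1, adjusted p = 0.625). In this comparison 21.8% of all genes did not overlap on the ratio and 21.5% did so with Itga8-Cre higher and 0.211% with it lower, so 1 of 10 factors is below the share of all genes. Between the Cre lines 0 of 10 factors did not overlap, beside 4.32% of all genes, 4.13% with Itga8-Cre higher and 0.191% with it lower. Relative to the smooth muscle markers 8 of 10 factors were higher in Itga8-Cre than in Myh11-Cre, at a median difference of 0.24. All of these markers except Cald1, Pln and Ramp1 are also on the list of contractile targets of Myocd and Srf. The ratio is therefore not free of the factors it is set against. Des, one of the 13, is also made by skeletal muscle.

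The 9 aortae also showed how the factors varied with tissue markers. Such a relation does not assign a factor to a tissue, since marker lists can share their extreme libraries. By mean log2 CPM, Itga8-Cre 1 and Myh11-Cre 1 were lowest in both smooth and skeletal muscle markers. Myh11-Cre 2 and Myh11-Cre 3 were highest in both. Each factor was correlated with 10 marker lists over the 9 libraries, and 5 of 100 relations passed after Benjamini-Hochberg adjustment of exact permutation p values. The share of all genes that would pass was not computed, so these relations cannot be read as particular to the factors. Mef2c followed skeletal muscle markers (Pearson r = 0.915, exact permutation p = 9.65e-05, adjusted p = 0.00965, Spearman rho = 0.967 with exact p = 0.000165 and adjusted p = 0.0118). Srf followed them too (r = 0.933, exact permutation p = 0.0004, adjusted p = 0.0133, rho = 0.95 with exact p = 0.000353 and adjusted p = 0.0118). Mouse 1 of both Cre lines lay farthest from the median of that list, and without these 2 libraries r was 0.899 for Mef2c and 0.888 for Srf. After each group was centred on its own mean, r was 0.966 and 0.955. Klf5 had r = 0.823 with the same list (exact permutation p = 0.0079, adjusted p = 0.0934, rho = 0.95 with exact p = 0.000353 and adjusted p = 0.0118). With mesothelial and epithelial markers Klf5 had r = 0.797 (exact permutation p = 0.00934, adjusted p = 0.0934, rho = 0.533 with exact p = 0.148 and adjusted p = 0.379).

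Smooth muscle markers were followed by 2 factors past the threshold and by 2 just short of it. For Srf r was 0.884 (exact permutation p = 0.00217, adjusted p = 0.044, rho = 0.8 with exact p = 0.0138 and adjusted p = 0.153). For Foxc1 r was 0.88 (exact permutation p = 0.0022, adjusted p = 0.044, rho = 0.817 with exact p = 0.0108 and adjusted p = 0.153). Myocd had r = 0.849 (exact permutation p = 0.00455, adjusted p = 0.0758, rho = 0.833 with exact p = 0.00827 and adjusted p = 0.153), and Prdm6 had r = 0.812 (exact permutation p = 0.00886, adjusted p = 0.0934, rho = 0.7 with exact p = 0.0433 and adjusted p = 0.309). Without Myh11-Cre 1 and Myh11-Cre 3, r was 0.773 for Srf, 0.764 for Foxc1, 0.796 for Myocd and 0.665 for Prdm6. Tead1 was the single factor with a negative r for this list (r = -0.245, exact permutation p = 0.531, adjusted p = 0.681, rho = -0.033).

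Tcf21 followed cardiac muscle markers (r = 0.947, exact permutation p = 0.000383, adjusted p = 0.0133, rho = 0.9 with exact p = 0.00203 and adjusted p = 0.0508). Itga8-Cre 2, Myh11-Cre 2 and Myh11-Cre 3 were the 3 libraries highest in this list, at sums of 9800, 10500 and 9730 CPM, and also the 3 highest in Tcf21. Without Itga8-Cre 2 and Myh11-Cre 2, r was 0.918. With fibroblast markers, the tissue in which Tcf21 is best known, r was 0.58 (exact permutation p = 0.104, adjusted p = 0.286, rho = 0.583). With smooth muscle markers r for Tcf21 was 0.68 (exact permutation p = 0.0513, adjusted p = 0.232, rho = 0.8 with exact p = 0.0138 and adjusted p = 0.153). Meis1 and Gata6 had r = 0.843 and 0.785 with cardiac markers (exact permutation p = 0.00605 and 0.0171, adjusted p = 0.0864 and 0.132, rho = 0.783 and 0.75). Gata6 had r = 0.8 with fibroblast markers (exact permutation p = 0.0111, adjusted p = 0.101, rho = 0.783). Foxc1 had r = 0.787 with fibroblast markers (exact permutation p = 0.0122, adjusted p = 0.102, rho = 0.8). These relations rest on few libraries: without Myh11-Cre 1, 0 of 100 passed, and without Itga8-Cre 1, 2 or 3, Myh11-Cre 2 or Wild Type 2 or 3, 2 or 3 of 100 passed (4 without Myh11-Cre 3 or Wild Type 1). Leaving out a library also lowers the number of pairings in the exact test, which makes passing harder. All scores come from the same 9 libraries and share their scaling.

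**Figure D4:**
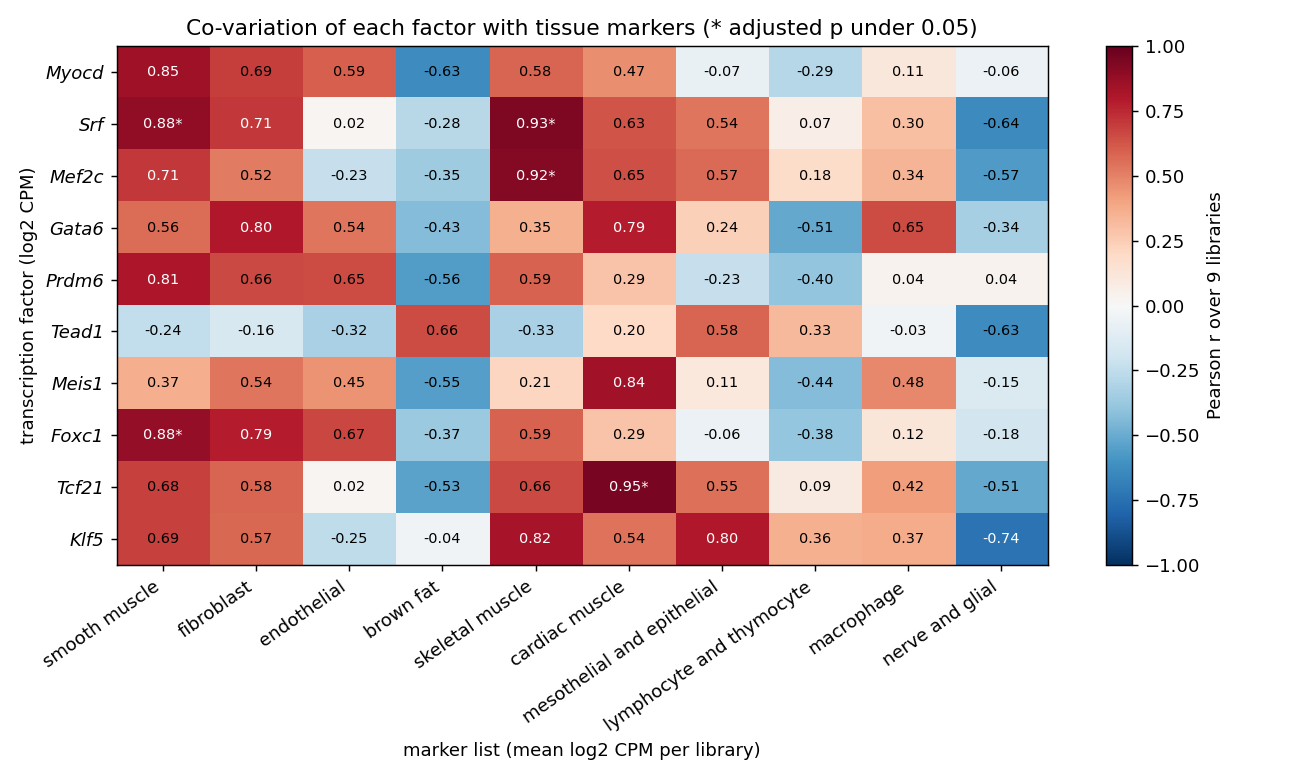
Pearson r over 9 libraries between the log2 CPM of each factor (rows) and the mean log2 CPM of each marker list (columns), with a star where the adjusted p was under 0.05. Starred cells are Srf and Foxc1 with smooth muscle, Srf and Mef2c with skeletal muscle, and Tcf21 with cardiac muscle.

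**Figure D5:**
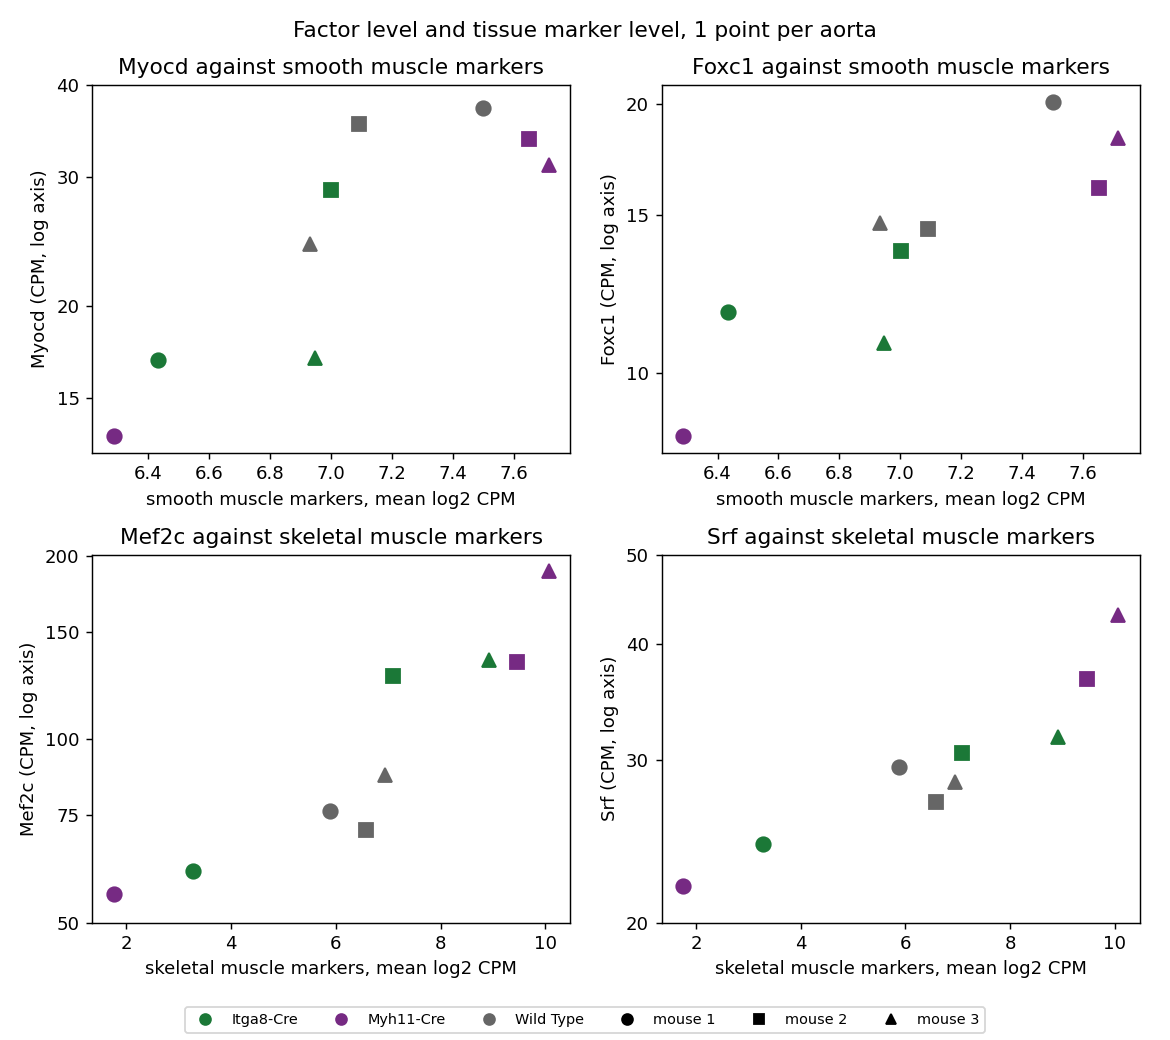
CPM of Myocd and Foxc1 (log axis) against smooth muscle markers, and of Mef2c and Srf against skeletal muscle markers, 1 point per aorta coloured by genotype and shaped by mouse number. Myh11-Cre 1 and Itga8-Cre 1 have the lowest marker levels in all 4 panels.

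Among themselves, several factors varied together over the 9 libraries. Of 45 pairs, 39 had a positive r and 7 passed after adjustment over the 45. The share of all gene pairs that would pass was not computed, so these counts cannot be read as particular to the factors. Srf, Mef2c and Klf5 formed a set, with r = 0.938 for Srf and Mef2c (exact permutation p = 2.48e-05, adjusted p = 0.00112, rho = 0.967), 0.853 for Srf and Klf5 (exact p = 0.00136, adjusted p = 0.0111, rho = 0.933) and 0.817 for Mef2c and Klf5 (exact p = 0.00507, adjusted p = 0.0326, rho = 0.933). Myocd, Prdm6 and Foxc1 formed another, with r = 0.953 for Prdm6 and Foxc1 (exact permutation p = 9.92e-05, adjusted p = 0.00223, rho = 0.95), 0.911 for Myocd and Foxc1 (exact p = 0.000518, adjusted p = 0.00777, rho = 0.833) and 0.932 for Myocd and Prdm6 (exact p = 0.00148, adjusted p = 0.0111, rho = 0.8). Gata6 and Meis1 had r = 0.891 (exact permutation p = 0.000733, adjusted p = 0.00825, rho = 0.95). Without the 2 libraries farthest from the median of the second gene, these r values were 0.671 to 0.902. The sets were less distinct after each group was centred on its own mean. Myocd then had r = 0.91 with Prdm6 and 0.882 with Foxc1, but also 0.894 with Gata6 and 0.897 with Tcf21. Srf had 0.964 with Mef2c and 0.857 with Klf5, but also 0.873 with Prdm6 and 0.847 with Foxc1. By rank, 5 of the 7 pairs had an adjusted p of 0.0053 to 0.00675 for rho, while Myocd with Foxc1 had 0.062 and Myocd with Prdm6 had 0.0887 (exact permutation tests). The 6 negative pairs all included Tead1.

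The genes whose levels were most like each factor were sought among 13751 named genes, by Pearson r of log2 CPM over the 9 libraries. These are a description with no test, since the best of many genes is always high. For Myocd they were Mrvi1, a target of cGMP-dependent kinase in smooth muscle, Itga3 and Samd4, at 0.974, 0.974 and 0.973. For Prdm6 they were Creb5, Gucy1b1, a subunit of the nitric oxide receptor guanylate cyclase, and Wscd2, at 0.974, 0.968 and 0.966. For Foxc1 they were St3gal2, the actin crosslinker Flna and Sema3f, at 0.986, 0.98 and 0.98.

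Other factors had other neighbours. Mef2c was most like Bin1, which shapes the membrane tubules of striated muscle, Slco5a1 and Wdr66, at 0.99, 0.984 and 0.98. Srf was most like Castor2, Sh3bgr and Shisa4, at 0.982, 0.978 and 0.975. Klf5 was most like Vill, the LIM protein Fhl3 and Car8, at 0.976, 0.971 and 0.967. Gata6 was most like Bicc1, the fibroblast receptor Pdgfra and Htra3, at 0.946, 0.944 and 0.932. Tcf21 was most like Csdc2, the sodium-calcium exchanger Slc8a1 and Ppp1r14c, at 0.981, 0.972 and 0.97. Tead1 was most like Ppp1r3c, which directs glycogen synthesis, Pgap3 and Hist2h2be, at 0.95, 0.926 and 0.924. Meis1 was most like Arhgap31, Rasl10b and Ehbp1, at 0.961, 0.953 and 0.948.

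Related factors in 8 lists, 97 genes of which 96 were tested, gave no edgeR call in any comparison. They held cofactors of Srf, relatives of Mef2c and Gata6, the Tead and Hippo genes, Kruppel-like, bHLH, forkhead, homeobox and other mesenchymal factors. In Itga8-Cre against Wild Type 2 had an unadjusted p under 0.05 with a higher value and 6 with a lower one, beside 3.97% and 2.81% of all genes. In Myh11-Cre against Wild Type these were 4 and 8, beside 6.93% and 9.48% of all genes, and DESeq2 called 5 of 96, Gata2, Gata5, Klf7, Hand1 and Hand2, beside 4.44% of all genes. In Itga8-Cre against Myh11-Cre they were 4 and 2, beside 7.64% and 1.83% of all genes, and DESeq2 called 0. Groups did not overlap for 20.8%, 16.7% and 7.29% of the 96, beside 11.1%, 26% and 12.7% of all genes.

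Within these families, Gata2, a factor of endothelium and blood cells, was at 12.1, 11 and 10.7 CPM in the Myh11-Cre mice, 14.5, 15.8 and 10.5 in the Itga8-Cre mice and 17, 22.5 and 18.8 in the Wild Type mice. Both Cre lines lay below Wild Type, with log2 fold changes of -0.79 (SE 0.17, adjusted p = 0.218 in edgeR and 0.00465 in DESeq2) and -0.52 (SE 0.17, adjusted p = 0.699 in edgeR). Hand1 was at 0.876, 0.389 and 0.182 CPM in the Myh11-Cre mice against 1.33, 4.31 and 3.64 CPM in the Wild Type mice (log2 fold change -2.68, SE 0.59, adjusted p = 0.218 in edgeR and 0.0014 in DESeq2). Nerve and glial markers differed alongside: 7 of 10 had all Myh11-Cre values below all Wild Type values, with sums of 155 to 292 CPM against 313 to 634 CPM, and none of the 10 was at 0. Of all genes, 14.7% did not overlap with Myh11-Cre lower. Of 12 endothelial markers, none at 0, 5 had all Myh11-Cre values below all Wild Type values and 1 had all Itga8-Cre values below them. Their sums were 832 to 956 CPM in the Myh11-Cre mice, 723 to 919 in the Itga8-Cre mice and 901 to 984 in the Wild Type mice. The part of either tissue in Gata2 and Hand1 was not tested.

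Partners of Tead1 and Srf gave no call in edgeR or DESeq2. Among listed Srf cofactors, Hopx had a log2 fold change of 1.21 (SE 0.54, adjusted p = 0.311 in edgeR) in Myh11-Cre against Wild Type. Csrp2 had -0.69 (SE 0.31, adjusted p = 0.699 in edgeR) in Itga8-Cre against Wild Type. Vgll4, a cofactor that competes with Yap1 for Tead factors, was at 77.9, 67.3 and 69.9 CPM in the Itga8-Cre mice, 77.6, 70 and 86.8 in the Myh11-Cre mice and 100, 93.5 and 98.2 in the Wild Type mice. Its values in both Cre lines lay below all of Wild Type, with log2 fold changes of -0.44 (SE 0.105, adjusted p = 0.699 in edgeR and 0.109 in DESeq2) and -0.32 (SE 0.105, adjusted p = 0.232 in edgeR). Yap1 was at 51, 51.5 and 49 CPM in Itga8-Cre and 61.2, 65.1 and 62.8 CPM in Myh11-Cre, without overlap (log2 fold change -0.32, SE 0.09, adjusted p = 0.521 in edgeR). Mrtfa, a coactivator of Srf related to Myocd, was at 29.6, 39.2 and 33.8 CPM in the Itga8-Cre mice against 28.4, 29.3 and 28.8 CPM in the Wild Type mice (log2 fold change 0.25, SE 0.12, adjusted p = 0.699 in edgeR).

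The contractile targets of Myocd and Srf were a list of 19 genes, all tested, Itga8 and Myh11 among them. In Itga8-Cre against Wild Type edgeR called 0, DESeq2 called 1 (Itga8, adjusted p = 0.0482), 14 had lower and 5 higher values, and the median log2 fold change was -0.49, beside 0.04 over all genes. Itga8 is the gene that drives the Cre in these mice, and the part of that allele in its level was not tested. In Myh11-Cre against Wild Type edgeR called 0, DESeq2 called 1 (Des, adjusted p = 0.049), 7 had lower and 12 higher values, and the median was 0.14. Des was at 124 CPM in Myh11-Cre 1 but 605 and 729 in Myh11-Cre 2 and Myh11-Cre 3, the libraries highest in skeletal muscle markers. The part of skeletal muscle in its level was not tested. All 19 had lower values in Itga8-Cre than in Myh11-Cre, with a median of -0.75 and 0 calls by either tool. Acta2, Tagln, Cnn1, Myh11, Myl9, Mylk, Smtn, Lmod1, Synpo2 and Des are also among the smooth muscle markers, so these lists are not independent. At an unadjusted p under 0.05 the 3 comparisons had 3, 4 and 1 of 19, beside 6.78%, 16.4% and 9.48% of all genes. DESeq2 called 0.166%, 4.44% and 0.109% of all genes it tested.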

How the data were processed

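The authors deposited a table of raw counts per gene symbol for 9 libraries of poly(A)-selected, strand-marked RNA from flash-frozen aortae, read as single 75 nt reads per the labels' protocols. The submitters' processing notes name the build GRCm38.p6, the aligner STAR 2.7.0f, Salmon 0.13.1, featureCounts and its package Subread 1.6.4, the read trimmer fastp 0.20.0, and DESeq2, but no order of use. Whether counting used strand is not stated in these sources. A deposited table of scaled values was not used.

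Counts were fitted in R 4.3.3 with edgeR 4.0.16: filterByExpr by group (19412 of 55453 genes kept), TMM factors, 1 group-means model over all 9 libraries, robust quasi-likelihood F tests, and Benjamini-Hochberg adjustment over all tested genes with a threshold of 0.05. Replicates had a common biological coefficient of variation of 0.294. The other tools were limma 3.58.1 with voom weights and DESeq2 1.42.0. Log2 CPM for ratios and correlations used a prior count of 2. The edgeR p values set a difference between groups against the spread between mice within groups, estimated over all groups together. Permutation p values of correlations exchange all 9 libraries without regard to genotype. The 10 factors, the lists and the rule for named genes (all 10 factors, the 3 most similar genes of each, and up to 2 genes with the smallest p per related list and comparison, of which the text prints a selection made after their values were seen) were chosen with earlier results of these data known. Hand2 is outside that rule and is named, after its value was seen, for its DESeq2 call. Positions and exon lengths are from GENCODE M21, and promoters from RefSeq on GRCm38.p6. The procedures were tested on simulated data. Alternatives were other scaling, no filter, other tools, 2 groups only, a replicate block, and leaving out libraries. The main model held no term for mouse number. Residuals of equal-numbered libraries correlated above 0.1, the cut used, in 5 of 9 pairings. All 9 were nevertheless positive (r = 0.033 to 0.396), against -0.355 to 0.24 for libraries of unequal number. In addition, 5 of 9 libraries were closest to their own number in both other groups. The cut therefore does not settle whether equal-numbered mice were alike, and fits with a replicate block are given among the alternatives.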

Additional observations from a re-analysis of the deposited data

How the results depend on the processing

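Of 510 fold changes of single factors under the other settings, 468 kept their direction and their side of the threshold, 41 turned direction and 1 became a call, Mef2c in Myh11-Cre against Wild Type. The number of factors called was 0 in each comparison under each setting except 1 in Myh11-Cre against Wild Type without Itga8-Cre 1 and Myh11-Cre 1, where all genes gave 265 calls. With a replicate block by mouse number, 0 of 10 factors were called in each comparison, with 0, 1 and 0 calls over all genes, and same-numbered libraries had residual correlations of 0.03 to 0.4 against -0.35 to 0.24 for other pairs, with 5 of 9 libraries closest to their own number in both other groups. DESeq2 called 30, 828 and 19 of all genes.

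Values that turned were small or rested on few libraries. For Meis1 in Itga8-Cre against Wild Type they were -0.014 with DESeq2-style size factors in edgeR, -0.016 with DESeq2 and -0.01 in a fit of these 2 groups. Without the 2 libraries lowest in smooth muscle markers, Myocd was 0.005 and Foxc1 0.066 in Myh11-Cre against Wild Type. Leaving out the 3 libraries highest in skeletal muscle markers reduces the Myh11-Cre arm to Myh11-Cre 1, the lowest of all 9 for 6 factors, so its values describe that library. In this setting Itga8-Cre against Wild Type gave -0.058 for Srf and -0.15 for Klf5. Myh11-Cre against Wild Type gave -0.36 for Srf, -0.45 for Gata6, -0.49 for Mef2c, -0.42 for Klf5, -1.03 for Tcf21 and -0.06 for Meis1. Itga8-Cre against Myh11-Cre gave 0.77 for Myocd, 0.31 for Srf, 0.83 for Gata6, 0.73 for Mef2c, 0.61 for Prdm6, 0.27 for Klf5, 1.53 for Tcf21, 0.56 for Foxc1 and 0.19 for Meis1. Both settings were chosen after the data were seen, and the cause was not tested.

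Leaving out 1 library at a time, the ranges in Itga8-Cre against Wild Type were -0.056 to 0.14 for Srf, -0.15 to 0.39 for Gata6, -0.15 to 0.98 for Klf5, -0.76 to 1.36 for Tcf21 and -0.16 to 0.13 for Meis1. In Myh11-Cre against Wild Type they were -0.53 to 0.008 for Myocd and -0.41 to 0.071 for Foxc1, and, without a turn, 0.68 to 2.42 for Tcf21. In Itga8-Cre against Myh11-Cre they were -0.41 to 0.13 for Gata6, -0.59 to 0.18 for Mef2c, -0.45 to 0.016 for Prdm6 and -0.25 to 0.035 for Meis1.

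Of 30 ratios to smooth muscle markers, 3 did not overlap between groups, 4 did not with Acta2 alone as the base (Myocd no longer among them in Myh11-Cre against Wild Type), and 3 to 10 did not without 1 library, where fewer libraries make separation easier. Of 100 relations to marker lists, 5 passed, and 17 passed after centring on group means. On 7 libraries without the 2 farthest 0 passed, and 0 to 4 passed without 1 library. Fewer libraries leave fewer pairings for the exact permutation test, so its lowest p is higher and passing is harder. Without the 2 farthest libraries, r of the 5 relations was 0.764 to 0.918. Centring ties the values within a group, which the permutation ignored, so the 17 cannot be set beside the 5. Per kilobase of the longest transcript, Mef2c was at 16.6, Tead1 at 8.38, Gata6 at 4.28, Meis1 at 2.71 and Prdm6 at 2.15 CPM. Depth limits Tcf21 most, at 7 to 111 counts.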
